A study of Mus musculus with 13 samples.

Results

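In this series, accessible chromatin was measured by ATAC-seq, in which the Tn5 transposase cuts open DNA and leaves sequencing adapters there. The comparison described here is that of proximal forelimb (PFL) cells from embryos carrying allele 542 with PFL cells from wild-type (wt) embryos. Both were of the B6CBAF1 strain at E12.5, with 2 libraries per genotype. Per the study, the 542 embryos used for ATAC-seq were homozygous for the insertion. The members are the regions found in both libraries of 1 genotype and in neither of the other, among the 50000 strongest regions of each library on chromosomes 1 to 19. Of 68722 consensus regions, formed by joining regions that overlap, 2998 were of wt PFL only and 2439 of 542 PFL only, 5437 in all. The series holds 13 libraries, and the distal forelimb (DFL) and forebrain (FB) libraries of both genotypes served as data that played no part in choosing the members.

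Embryos of allele 542 came from 1 founder line in which a transgene was placed, as a single copy, in the regulatory domain on the telomeric side of the HoxD cluster (T-DOM). The transgene holds II1, a distal limb enhancer taken from the centromeric domain (C-DOM), an HBB promoter and a LacZ reporter, which wt embryos lack. Each library was made from 50000 cells treated with collagenase, and each replicate came from pooled embryos, so that single embryos cannot be compared. The wt libraries were mapped to mm10 and the 542 libraries to a mutant genome with the insertion.

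Enhancers are stretches of DNA, often far from the genes they act on, that become accessible when transcription factors displace nucleosomes there. In the limb bud T-DOM holds the enhancers that drive Hoxd genes in the future arm and forearm, while C-DOM does so in the future hand. Proximal limb cells include the progenitors of cartilage, tendon and connective tissue as well as migrating muscle cells. A nearest gene is given for each region as an address, since an enhancer need not act on the gene that lies nearest.

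The libraries differed in depth between the genotypes. Estimated from the local background of the peak calls, the wt PFL libraries held 48.8 and 52.7 M tags (M, mega) and the 542 PFL libraries 37.9 and 37.5 M tags, and 113865 and 110916 regions were called in wt against 94904 and 85104 in 542. The region at rank 50000 had a −log10 q of 11.3 and 11.0 in wt and of 8.84 and 7.25 in 542. The median width of listed regions was 674 and 671 bp in wt and 567 and 519 bp in 542. The part of depth and width in the results below was not tested.

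The tissue label was checked against marker genes. Listed regions nearest to 13 limb mesenchyme genes numbered 102 to 110 in the 4 PFL libraries and 80 to 88 in FB, while those nearest to 16 forebrain genes numbered 58 to 65 in PFL and 139 to 151 in FB. A region lay within 1 kb of a start of Twist1, a mesenchyme transcription factor, with a fold of 8.80 to 10.9 in PFL and 4.57 to 5.14 in FB. The starts of this list did not all go the same way. Twist2 had 5.38 to 8.21 in PFL and was not listed in FB. Prrx1 had 3.05 to 3.72 in PFL and 6.36 to 7.98 in FB, and at Msx1 and Tbx18 the folds of PFL and FB overlapped. At Myog, a regulator of muscle differentiation, a region had a fold of 5.64 to 7.23 in all 4 PFL libraries and was not listed in the 8 DFL and FB libraries. No listed region lay within 1 kb of a start of Tbx5, a forelimb factor, in any library. Regions nearest to 7 distal limb genes numbered 21 to 29 in PFL, 44 to 48 in DFL and 27 to 31 in FB. Those nearest to 4 hindlimb genes numbered 7 to 10 in PFL, 8 to 11 in DFL and 3 to 5 in FB. Muscle regions numbered 145 to 162 in PFL, 122 to 129 in DFL and 124 to 131 in FB. In PFL, blood regions numbered 58 in both wt against 62 and 64 in 542, endothelium regions 87 to 91 and ectoderm regions 63 to 70. Glia and neural crest regions numbered 57 and 58 in wt PFL against 52 and 46 in 542 PFL.

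The strongest members that recurred in the other tissues are shown first as sequence, because they include the regions of highest fold with no call in the other genotype. Each run is 200 bases of the plus strand of GRCm38 (mm10), centred on the strongest summit, and capitals mark matches to the motifs listed further on. The first 3 were called in all 6 wt libraries of PFL, DFL and FB and in no 542 library. They lie on chromosome 12, with 2410018L13Rik, the pseudogene Mrto4-ps2 and 9030624G23Rik as nearest genes, at chr12:23010230-23010429, chr12:21784464-21784663 and chr12:24097209-24097408.
2410018L13Rik: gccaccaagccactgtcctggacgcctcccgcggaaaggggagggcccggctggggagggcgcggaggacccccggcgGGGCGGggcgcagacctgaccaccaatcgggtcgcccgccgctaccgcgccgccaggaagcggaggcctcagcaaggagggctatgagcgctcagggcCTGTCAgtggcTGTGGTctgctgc
Mrto4-ps2: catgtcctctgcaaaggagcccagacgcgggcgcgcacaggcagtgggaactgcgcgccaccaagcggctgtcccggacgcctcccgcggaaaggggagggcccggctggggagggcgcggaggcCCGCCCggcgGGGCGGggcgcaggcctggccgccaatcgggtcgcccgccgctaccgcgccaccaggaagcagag
9030624G23Rik: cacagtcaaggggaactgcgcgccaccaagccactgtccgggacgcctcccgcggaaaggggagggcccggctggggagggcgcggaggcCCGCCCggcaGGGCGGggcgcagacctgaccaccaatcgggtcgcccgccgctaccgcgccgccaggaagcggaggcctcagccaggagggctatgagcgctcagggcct

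These 3 sequences are near copies of each other. The runs at 2410018L13Rik and 9030624G23Rik share an unbroken stretch of 73 bases, and those at Mrto4-ps2 and 9030624G23Rik one of 59 bases. The central 32 bases of the summit occur 6 times in the reference at 2410018L13Rik, 11 times at Mrto4-ps2 and 1 time at 9030624G23Rik. The authors discarded alignments of low mapping quality, a filter meant to keep reads that map uniquely. What this filter left of the signal at such near copies was not tested.

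A pair of 542-only members that also recurred in all 3 tissues is given next, the first at chr4:89875750-89875949, far from Dmrta1, a transcription factor gene, and the second at chr13:4942570-4942769, in an intron of Gm47450.
Dmrta1: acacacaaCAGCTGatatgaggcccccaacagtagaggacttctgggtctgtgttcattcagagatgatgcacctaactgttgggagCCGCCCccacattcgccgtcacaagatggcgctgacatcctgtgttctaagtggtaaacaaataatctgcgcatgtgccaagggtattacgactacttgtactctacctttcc
Gm47450: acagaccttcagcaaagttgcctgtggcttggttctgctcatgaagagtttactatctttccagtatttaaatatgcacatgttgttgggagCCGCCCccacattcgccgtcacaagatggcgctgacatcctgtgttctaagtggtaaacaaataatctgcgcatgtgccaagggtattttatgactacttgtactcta

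These runs share an unbroken stretch of 97 bases, from position 79 of the first and position 84 of the second. The window of 300 bp at the Dmrta1 summit was marked as repeat (soft-masked) in the reference over 99% of its bases and that at Gm47450 over 57%. The central 32 bases occur 1018 and 1017 times in the reference. The pair does not stand for all such members. A region at Gm16464, described further on, lay between them in mean fold in 542 PFL, at 8.329 beside 10.28 and 8.316. Its window had 8% masked bases, and its central 32 bases occur 2 times.

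For members outside the 50000 strongest regions of every DFL and FB library, the strongest of each direction is shown. The wt-only one, at chr5:53497244-53497443, lies in an intron near Gm10441 and Rbpj, the DNA-binding effector of Notch signalling. The 542-only one, at chr2:8056055-8056254, is intergenic, with Gm13254 nearest and Celf2 as nearest coding gene.
Gm10441: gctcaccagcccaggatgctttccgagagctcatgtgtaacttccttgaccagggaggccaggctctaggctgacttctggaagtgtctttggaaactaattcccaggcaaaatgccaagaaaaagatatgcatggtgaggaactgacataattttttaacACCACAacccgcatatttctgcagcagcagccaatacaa
Gm13254: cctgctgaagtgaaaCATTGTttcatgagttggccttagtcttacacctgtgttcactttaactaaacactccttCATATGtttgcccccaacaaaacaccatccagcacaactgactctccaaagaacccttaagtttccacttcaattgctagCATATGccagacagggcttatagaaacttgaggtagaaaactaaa

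Both are unique by this measure, since their central 32 bases occur 1 time in the reference. Neither window of 300 bp was mostly repeat, with 16% masked bases at Gm10441 and 43.7% at Gm13254.

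Most members were regions of middling strength that passed into the list in 1 genotype and stayed outside it in the other. The fold, which is the ratio of tags under the summit to the local background of the same library with 1 added to both, had a median of 5.60 and 5.36 in the wt libraries for the wt-only regions and of 5.54 and 5.00 in the 542 libraries for the 542-only regions. Regions present in all 4 libraries had medians of 7.89 to 8.69. The wt-only regions made up 4.36% of the consensus and the 542-only regions 3.55%. These shares are the selection rule itself and therefore carry no test. For comparison, 33703 regions (49.0%) were in all 4 lists, and between 3644 and 4793 regions were found in a single library.

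In the full deposited lists, most members were also called in the genotype that lacked them in the 50000 strongest. Of the wt-only regions, 1451 (48.4%) were called in both 542 libraries, 1045 (34.9%) in 1 and 502 (16.7%) in neither. Of the 542-only regions, 1859 (76.2%) were called in both wt libraries, 439 (18.0%) in 1 and 141 (5.78%) in neither. Where a wt-only region was called in 542, the median fold was 3.86 and 3.59, and where a 542-only region was called in wt it was 3.86 and 3.77. The median rank of the members in their own libraries was between 38258 and 39060. In both libraries, 718 wt-only regions (23.9%) and 551 542-only regions (22.6%) were among the weakest 10000. The 20000 strongest of both libraries held 16 wt-only and 7 542-only regions.

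**Figure D1:**
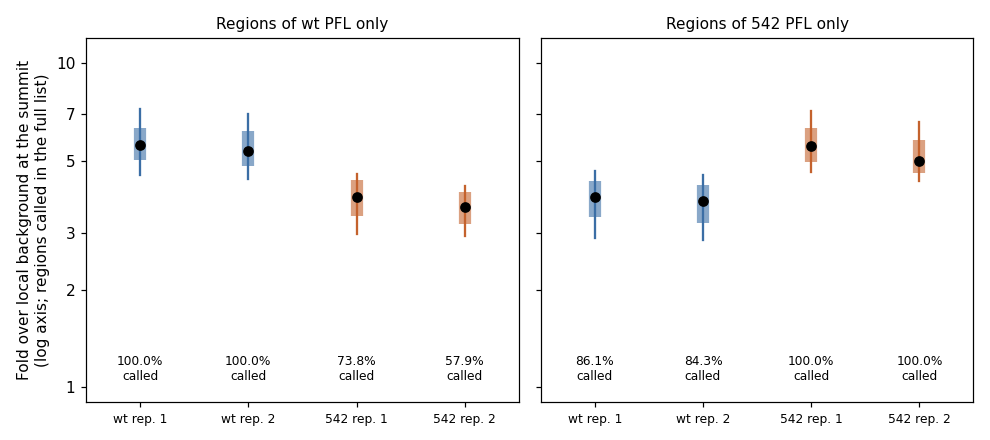
Fold over local background (log axis) of the members in each of the 4 PFL libraries, for regions called in the full list of that library. Dots are medians, thick bars the 25th to 75th percentile, thin lines the 10th to 90th percentile, and the printed share is that of members called at all. Medians were 5.00 to 5.60 in the libraries that hold the members and 3.59 to 3.86 in the others.

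Just inside and outside the list, the values were nearly the same. At ranks 50000 and 50001 the fold was 4.73 and 4.73 in wt replicate 1, 3.89 and 3.64 in wt replicate 2, 4.41 and 4.41 in 542 replicate 1 and 4.39 and 4.39 in 542 replicate 2.

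The member of highest fold was a wt-only region on chromosome 9 (88599164 to 88599931), 96 bp from a start of the non-coding gene 9430037G07Rik. Its fold was 23.2 and 22.6 in wt PFL and 3.37 and 3.59 in 542 PFL. In DFL it was 21.1 and 23.1 in wt and 6.27 and 5.10 in 542. In FB it was 27.3 and 25.1 in wt, and no region was called in 542. The wt libraries were thus above the 542 libraries in all 3 tissues without overlap.

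At 2410018L13Rik on chromosome 12 (23009727 to 23010768) the fold was 17.9 and 15.8 in wt PFL, 18.5 and 19.3 in wt DFL, and 13.7 and 16.9 in wt FB. None of the 6 libraries of 542 had a region there in its full list. The same held for Mrto4-ps2 (17.3 and 14.5 in wt PFL), 9030624G23Rik (16.4 and 13.4), Gm48042 (12.1 and 10.9) and Gm21297 (9.97 and 6.48). All 5 lie in the window from 20 to 25 Mb of chromosome 12, which held 8 wt-only regions among 59, or 13.6%. Their windows of 300 bp had a GC content of 71.3% to 76.0%.

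The promoter region of Zfp458, a zinc finger gene, on chromosome 13 (67278236 to 67278770) had a fold of 17.4 and 10.9 in wt PFL and of 4.36 and 3.20 in 542 PFL. It was 12.7 and 13.7 in wt DFL and 6.27 and 5.48 in 542 DFL. In FB it was weak, at 3.04 and 5.82 in wt and uncalled in 542. The intronic region near Rbpj (chromosome 5, 53497125 to 53497731) had 10.7 and 11.2 in wt PFL, 3.76 in 1 of the 542 PFL libraries and no region in the other. In DFL it was called weakly in wt, at 3.08 and 2.98, and not in 542, and in FB in no library. A region on chromosome 11 near Gm12034 (20445438 to 20446391) had a fold of 11.6 and 7.84 in wt PFL and no region in either 542 PFL library.

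Among the 542-only regions, the highest mean fold was found for an intergenic region of chromosome 3 near Gm31211 (140633348 to 140633878), with 9.87 and 12.4 in 542 PFL and 3.86 and 2.86 in wt PFL. In DFL it was 8.35 and 8.53 in 542 against 6.01 and 6.65 in wt, and in FB no region was called. The region far from Dmrta1 on chromosome 4 (89875481 to 89876407) had a fold of 13.0 and 7.59 in 542 PFL, while in wt PFL it was 3.54 in replicate 1 and uncalled in replicate 2. Its fold was 11.5 and 6.42 in 542 DFL and 12.0 and 14.6 in 542 FB. No region was called in wt DFL, and in wt FB the fold was 3.15 and 3.40.

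An intergenic region near Sf3b1 on chromosome 1 (54979265 to 54979781) was called in neither wt PFL library and had a fold of 7.92 and 10.6 in 542 PFL, but 5.10 to 6.45 in all 4 DFL libraries. The region near Rgs17 on chromosome 10 (6024538 to 6025211) was called in no other library of either genotype and had a fold of 7.84 and 7.31 in 542 PFL. An intronic region of Rora on chromosome 9 (68942474 to 68943079) had a fold of 9.43 and 8.61 in 542 PFL against 4.66 and 4.67 in wt PFL. In DFL its values overlapped, at 10.7 and 11.5 in 542 and 10.7 and 10.1 in wt.

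A smaller share of members than of all regions, or of those in all 4 libraries, lay near transcript starts. The regions in all 4 libraries, which are stronger, made up 13988 of the 17561 consensus regions within 1 kb of a start. Members were not compared with other regions of like strength. Within 1 kb of a start lay 382 wt-only regions (12.7%) and 164 542-only regions (6.72%), against 25.6% of all regions and 41.5% of those in all 4 libraries. The median distance to the nearest start was 13661 bp for wt-only and 17450 bp for 542-only regions, with 9372 bp over all. Introns held 48.8% of the wt-only and 47.0% of the 542-only regions, exons 8.27% and 4.22%. Regions over 100 kb from a start made up 5.40% of the wt-only and 8.82% of the 542-only regions. The median width was 617 bp for wt-only and 471 bp for 542-only regions, with 647 bp over all and 896 bp for regions of all 4 libraries. A consensus region joins the overlapping regions of the libraries that hold it. Regions held by 4 libraries are thus wider in part by construction. Listed regions were also wider in wt than in 542, as given above.

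**Figure D2:**
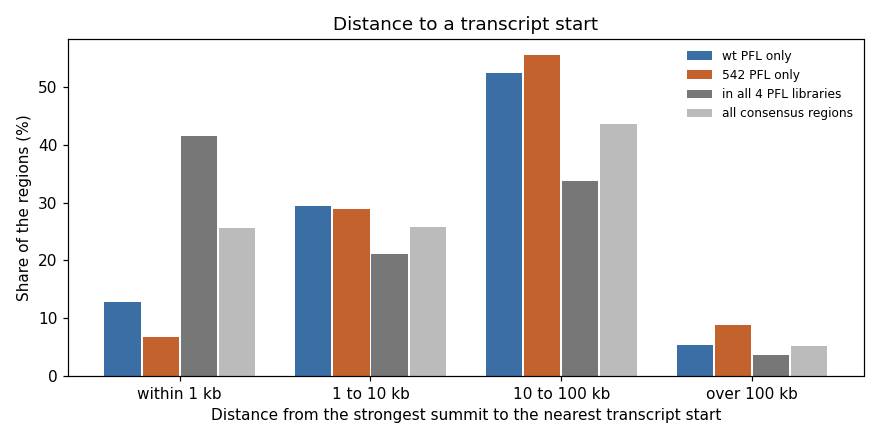
Share of regions (%) by distance from the strongest summit to the nearest transcript start, for the wt-only and 542-only regions, the regions in all 4 PFL libraries and all consensus regions. Within 1 kb the bars stand at 12.7%, 6.72%, 41.5% and 25.6%.

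Members were spread over all 19 autosomes. Wt-only regions made up 3.60% of the regions of chromosome 2 and 5.47% of chromosome 19, the lowest and highest shares, and 542-only regions 2.51% of chromosome 11 and 4.37% of chromosome 14. On chromosome 2, which carries the insertion, there were 202 wt-only and 217 542-only regions among 5611. In windows of 5 Mb with at least 20 regions, 493 in number, the median share was 4.03% for wt-only and 3.50% for 542-only regions. The wt-only share was highest on chromosome 1 from 0 to 5 Mb (3 of 22 regions), chromosome 12 from 20 to 25 Mb (8 of 59) and chromosome 7 from 130 to 135 Mb (14 of 125). For 542-only regions it was highest on chromosome 1 from 100 to 105 Mb (5 of 31), chromosome 17 from 90 to 95 Mb (11 of 72) and chromosome 14 from 35 to 40 Mb (8 of 56).

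At the HoxD locus, from Atp5g3 to Hnrnpa3, 5 of 78 regions (6.41%) were wt-only, beside 4.36% over all regions, none was 542-only, beside 3.55%, and 35 were in all 4 libraries. With so few regions these counts are near the shares over all regions. One lay in C-DOM (74404519 to 74405202), with a fold of 6.76 and 5.58 in wt, 4.16 in 542 replicate 1 and no call in 542 replicate 2. The other 4 lay in T-DOM. The first (74906965 to 74907991) had a fold of 6.11 and 6.18 in wt and 3.40 in 1 of the 542 libraries.

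The strongest T-DOM member (75224349 to 75224965), in an intron of the non-coding gene 2600014E21Rik, had a fold of 7.24 and 8.59 in wt PFL and of 4.75 and 3.99 in 542 PFL. It was also wt-only in DFL, at 7.47 and 6.13 against 4.61 and 4.53. It ends 44632 bp on the centromeric side of the insertion. The sequence at its summit, chr2:75224492-75224691, is shown as the HoxD member of highest fold.
2600014E21Rik: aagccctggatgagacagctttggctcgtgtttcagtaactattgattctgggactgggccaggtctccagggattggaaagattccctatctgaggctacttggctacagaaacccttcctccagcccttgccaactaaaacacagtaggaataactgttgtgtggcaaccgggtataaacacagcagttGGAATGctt

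The member nearest to the insertion (75266053 to 75266852) ends 2745 bp from it and had a fold of 5.83 and 5.06 in wt and of 3.12 and 3.55 in 542. The last (75556871 to 75557846), on the telomeric side, had 6.01 and 7.39 in wt and 4.36 and 4.19 in 542. Inside the insertion itself, where wt has no sequence to compare, 3 regions were called per 542 PFL library, with folds of 2.65 to 4.38. The one of fold 4.38, at rank 41872 in replicate 1, was within the 50000 strongest and the other 5 were not.

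The members were then grouped by nearest coding gene in 17 gene lists, beside the shares of 4.36% and 3.55% over all regions. Of the 15508 coding genes with a region, 2241 had a wt-only region, 1827 a 542-only region and 631 both. No list was tested, and the list counts include the several regions of 1 gene. In 15 lists the counts of both directions were unequal, and in 13 of these the direction turned in at least 1 of 9 alternative settings. The exceptions were Wnt signalling, where the counts became equal in 1 setting, and glia and neural crest. The totals over all regions shifted in these settings as well, so that a turn need not be particular to a list. Without 542 replicate 1 they were 5848 wt-only and 7263 542-only, and without 542 replicate 2 they were 5210 and 6582. Without wt replicate 1 they were 6714 and 4179, and without wt replicate 2 they were 6928 and 4306. All deposited regions gave 11888 and 2014, and the 20000 strongest 941 and 853.

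Near genes of cartilage and bone there were 24 wt-only regions (7.19%) and 8 542-only regions among 334. With the 20000 strongest regions there were 4 and 5, and with 1 library left out 35 to 47 wt-only and 15 to 31 542-only. An intergenic region assigned to Sox5, a partner of the chondrocyte regulator Sox9 (chromosome 6, 144889998 to 144890697), had a fold of 10.5 and 7.84 in wt and 3.40 in 1 of the 542 libraries. At Hapln1, a cartilage link protein gene (chromosome 13, 89394780 to 89395790), it was 6.92 and 7.94 in wt and 3.20 in 1 of the 542 libraries. A region near Col11a1, a fibrillar collagen gene of cartilage (chromosome 3, 113859669 to 113861073), had 6.50 and 7.48 in wt against 4.75 and 3.40. A 542-only region assigned to Sox9 (chromosome 11, 112288256 to 112288607) had 5.54 and 5.99 in 542 and 4.02 in 1 of the wt libraries.

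Near tendon and connective tissue genes 15 of 241 regions were wt-only (6.22%) and 3 were 542-only (1.24%). With the 20000 strongest the counts were 4 and 5, and with 1 library left out 22 to 34 and 9 to 19. Lum, a collagen-binding proteoglycan gene, had a wt-only region (chromosome 10, 97555592 to 97556395) of fold 6.76 and 6.48 in wt against 4.55 and 3.59 in 542. At Col1a2, a type I collagen gene, a 542-only region (chromosome 6, 4445951 to 4446231) had 5.15 and 5.39 in 542 and 2.73 in 1 of the wt libraries. Both directions thus occurred in this list.

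Near muscle genes 11 of 221 regions were wt-only (4.98%) and 5 were 542-only (2.26%). Without 542 replicate 1 the counts were 18 and 23, beside 5848 and 7263 over all regions. Without 542 replicate 2 they were 14 and 21, beside 5210 and 6582. Over all regions the 542-only count was thus the larger in these settings as well. Of the 11 wt-only regions, 5 were assigned to Eya4, a transcriptional coactivator. They include a region (chromosome 10, 23435818 to 23436562) with a fold of 6.27 and 6.18 in wt and no call in 542 PFL. The 542-only region nearest to Myod1, which sets the muscle lineage (chromosome 7, 46339772 to 46340165), had 4.79 and 4.99 in 542 against 3.22 and 4.52 in wt. A 542-only region at a start of Tnnt1, a slow muscle troponin (chromosome 7, 4515948 to 4516815), had 6.77 and 4.91 against 3.65 and 3.17. A stronger region within 1 kb of a Tnnt1 start was listed in both genotypes. Its fold was 10.4 and 9.32 in wt PFL, 8.33 and 9.23 in 542 PFL and 11.7 to 15.5 in FB.

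The proximal limb and forelimb patterning list was the reverse in its counts, with 5 wt-only regions (2.17%) and 11 542-only regions (4.78%) among 230. Without wt replicate 2 this turned to 27 and 19, beside 6928 and 4306 over all regions. With all deposited regions it turned to 42 and 5, beside 11888 and 2014. With the 20000 strongest the counts were 3 and 3. A 542-only region assigned to Shox2, which patterns the upper arm (chromosome 3, 66854250 to 66855207), had a fold of 8.12 and 4.59 in 542 and of 3.22 and 4.37 in wt. One assigned to Irx3 (chromosome 8, 91930501 to 91930939), a homeodomain factor, had 5.65 and 6.65 against 3.04 and 3.62. The intronic wt-only region of Tbx5 (chromosome 5, 119847758 to 119848615), the forelimb T-box gene, had 4.81 and 5.57 in wt against 3.98 and 3.95 in 542.

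Near distal limb patterning genes 12 of 156 regions were wt-only (7.69%) and 7 were 542-only (4.49%). These became 21 and 22 without 542 replicate 1, 16 and 18 without 542 replicate 2, and 0 and 1 with the 20000 strongest. The totals over all regions also turned without either 542 replicate, but not with the 20000 strongest. A wt-only region nearest to Sall1, a zinc finger factor of the limb bud (chromosome 8, 89171539 to 89172287), had 5.31 and 6.43 in wt and 3.99 in 1 of the 542 libraries. A 542-only region assigned to Bmp2, a growth factor (chromosome 2, 133406749 to 133407335), had 8.63 and 5.79 in 542 and 3.54 and 4.07 in wt. For limb mesenchyme transcription factors, 21 of 423 regions were wt-only (4.96%) and 13 were 542-only (3.07%). They became 34 and 39 without 542 replicate 2, where the totals over all regions turned too, and 4 and 7 with the 20000 strongest. Both directions were found at Twist2. There a wt-only region (chromosome 1, 91708517 to 91709349) had 7.51 and 6.78 in wt and 3.59 in 1 of the 542 libraries, and a 542-only region (91729250 to 91729635) had 5.75 and 6.36 in 542 against 3.69 and 3.35.

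Among signalling lists, Wnt signalling had 26 wt-only regions (7.58%) and 8 542-only regions (2.33%) among 343. With the 20000 strongest there were 3 of each, and with 1 library left out 37 to 49 and 13 to 28. Dkk2, a Wnt inhibitor, had a wt-only region (chromosome 3, 132219392 to 132220840) of fold 6.65 and 8.24 in wt with no call in 542 PFL. Ror2, a Wnt5a receptor (chromosome 13, 53130557 to 53131124), had 9.08 and 7.66 in wt and 3.56 and 3.99 in 542. A 542-only region in an intron of Rspo2, an amplifier of Wnt signalling (chromosome 15, 43123105 to 43123512), had 6.14 and 6.79 in 542 against 4.34 and 4.07 in wt.

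Near genes of Bmp and Tgf-beta signalling 20 of 430 regions were wt-only (4.65%) and 10 were 542-only (2.33%). These became 44 and 47 without 542 replicate 1 and 29 and 36 without 542 replicate 2. In both settings the totals over all regions turned too. A wt-only region near Bmp4, another growth factor gene (chromosome 14, 46397896 to 46398779), had 9.17 and 7.24 in wt and 4.55 and 4.19 in 542, while all 4 DFL libraries listed it. Fgf signalling had 9 wt-only (3.88%) and 12 542-only (5.17%) regions among 232. This turned to 23 and 19 without wt replicate 1, 28 and 16 without wt replicate 2 and 39 and 9 with all deposited regions. Over all regions the wt-only count was the larger in each of these settings as well. A 542-only region assigned to Fgf10, the mesenchymal signal for limb outgrowth (chromosome 13, 119043602 to 119044174), had 5.74 and 6.19 in 542 and 3.38 in 1 of the wt libraries. In Hedgehog signalling 6 of 180 regions were wt-only (3.33%) and 4 were 542-only (2.22%), with a wt-only region near Ptch1, the Hedgehog receptor (chromosome 13, 63595348 to 63596254), at 6.60 and 6.93 in wt and at most 3.37 in 542. For retinoic acid the counts were 6 (4.29%) and 5 (3.57%) of 140, and Rarb, a retinoic acid receptor, had regions of both directions.

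For cell types that the dissected tissue could hold besides mesenchyme, the counts of wt-only and 542-only regions were 3 and 4 of 83 for blood, 9 and 6 of 123 for endothelium, 4 and 4 of 105 for ectoderm and apical ridge, 6 and 1 of 79 for glia and neural crest and 2 and 2 of 123 for forebrain. For the dissociation and immediate early response, they were 9 and 5 of 160. In bulk cells, fewer cells of a type and less accessibility per cell cannot be told apart.

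By gene, 23 of the 15508 coding genes with a region had at least 4 wt-only regions and no 542-only region. Among them were Bckdhb with 6 of 38 regions, Creb5 with 5 of 30, and Eya4, Sall1 and Slit3 with 5 each. The reverse was found for 14 genes, with Map3k7 at 7 of 44 regions, Sugct at 6 of 26 and Pou3f2 at 5. These genes are the extremes of the selection itself, many genes have numerous regions, and no gene was tested. Among the genes with most members, some had both directions, such as Robo1, an axon guidance receptor, with 6 wt-only and 5 542-only regions among 91, and Tenm3 with 5 and 6 among 83.

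The members were sought in DFL and FB, whose libraries did not enter their choice. Among the 50000 strongest regions, wt DFL libraries held 40.3% and 40.1% of the wt-only PFL regions and 542 DFL libraries 26.1% and 27.8%. In FB wt libraries held 25.1% and 23.3% of them and 542 libraries 21.6% and 22.7%. The wt libraries were higher by 13.3 percentage points in DFL and 2.02 in FB, and by 7.64 over both tissues. No assignment of genotypes within tissues, of 36, gave a larger difference (exact permutation, two-sided, p = 0.0556). This design cannot reach 0.05, as 0.0556 is the lowest p it can give. Of all consensus regions, wt DFL held 60.8% and 60.1% and 542 DFL 56.9% and 57.5%, a difference of the same sign. As in PFL, the DFL libraries differed in depth, with an estimated 54.5 and 44.0 M tags in wt and 41.4 and 40.2 M in 542. The median width of listed DFL regions was 687 and 645 bp in wt and 571 and 579 bp in 542. In FB the tags were 70.7 and 56.6 M in wt and 64.5 and 51.4 M in 542. The part of depth and width in the recurrence of members was not tested.

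The 542-only PFL regions showed the opposite sign in DFL, with 30.9% and 29.5% in wt and 37.2% and 35.4% in 542, a difference of -6.07 points (wt minus 542). In FB the wt libraries held 17.8% and 17.3% and those of 542 18.1% and 17.6%, a difference, taken the same way, of -0.349 points that lies within the spread of the replicates. Over both tissues the difference was -3.21 points (exact permutation within tissues, two-sided, p = 0.111). In both directions the difference between genotypes was larger in DFL than in FB by value, which was not tested.

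**Figure D3:**
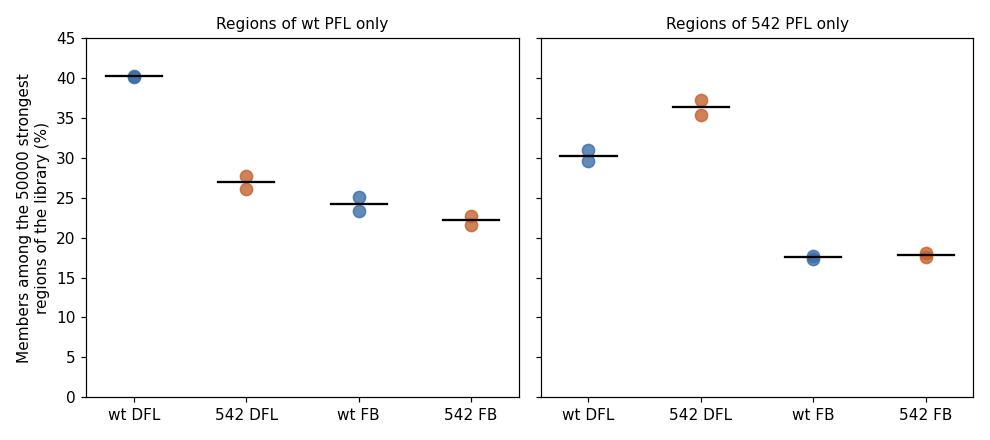
Share of the wt-only (left) and 542-only (right) PFL members found among the 50000 strongest regions of each DFL and FB library. Dots are libraries and bars the mean of 2. In DFL the genotypes did not overlap in either direction, and in FB the wt-only members were at 23.3% or more in wt and 22.7% or less in 542.

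Counted region by region, 247 of the 2998 wt-only members (8.24%) were also wt-only in DFL, where 3.06% of all regions were, and 32 were 542-only there. Of the 2439 542-only members, 118 (4.84%) were 542-only in DFL, where 1.48% of all regions were, and 40 were wt-only there. In FB the same direction was seen for 53 wt-only members (1.77%, against 0.885% of all regions) and 33 542-only members (1.35%, against 0.771%). Most members were absent from the DFL lists altogether or differed between replicates there: 1347 wt-only regions were in no DFL list and 951 in 1, 2 or 3 libraries without following genotype.

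The same way in DFL and in FB were found 16 wt-only members (0.534%, against 0.0626% of all regions) and 17 542-only members (0.697%, against 0.0698%), and none the opposite way in both. They were set apart from the other members in sequence, as a description. Among the 16 wt-only regions, 10 had a GC content over 60% and 8 lay within 1 kb of a start, against 203 and 382 of all 2998. The chromosome 12 window from 20 to 25 Mb, with its near copies, held 5 of these 10 and 4 of these 8. Of the 11 regions elsewhere, 5 had a GC content over 60% and 4 lay within 1 kb of a start. Crhr2, a receptor for corticotropin-releasing peptides, was one of them, with a fold of 7.81 and 6.93 in wt PFL and 4.45 and 3.99 in 542 PFL at its start (chromosome 6, 55117456 to 55118205). A region at D130017N08Rik on chromosome 5 (143757966 to 143758484) had 7.08 and 6.03 in wt PFL and no call in 542 PFL, and 12.7 and 11.1 in wt FB against 3.17 and 4.15 in 542 FB.

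Among the 17 542-only regions, 6 were mostly repeat sequence and 5 had central 32 bases that occur 20 times or more in the reference, against 68 and 14 of all 2439. The region near Bmf, a gene of the apoptosis pathway (chromosome 2, 118554503 to 118555068), had a fold of 6.99 and 7.07 in 542 PFL, 6.97 and 7.08 in 542 DFL and 7.01 and 5.92 in 542 FB, and no wt library had a call. Its central 32 bases occur 3325 times. A region near Gm20110 on chromosome 10 (99599396 to 99600063) likewise had no call in wt, and 7.92 and 6.29 in 542 PFL. At Gm16464, within Trim30d (chromosome 7, 104501172 to 104502488), a region with 8% masked bases had 7.72 and 8.94 in 542 PFL and 3.86 and 3.92 in wt PFL.

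**Figure D4:**
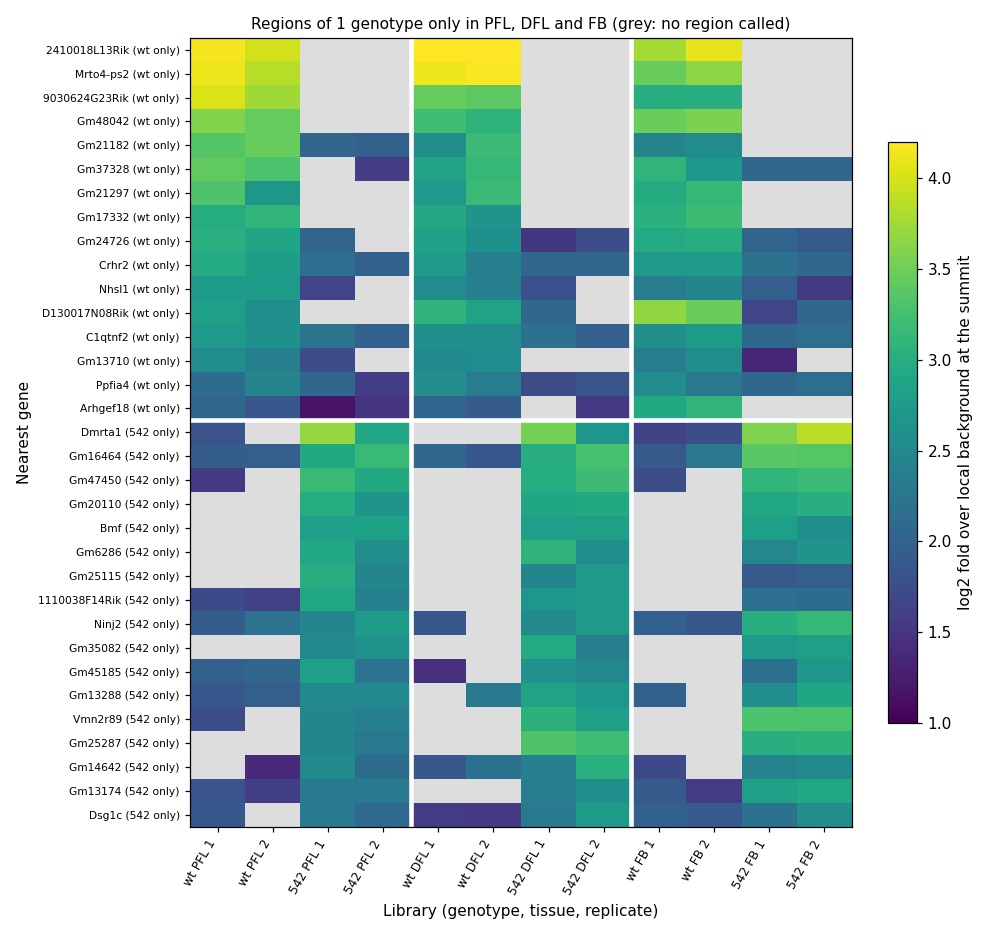
Log2 fold over local background of the 16 wt-only and 17 542-only regions found the same way in PFL, DFL and FB, by library. Rows are regions named by nearest gene, columns libraries by tissue and genotype, and grey marks libraries with no region in the full list. The upper rows, open in wt, include 5 regions of chromosome 12 that are grey in all 6 libraries of 542.

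In sequence over all members, repeats were more frequent in 1 direction. The window of 300 bp at the summit was mostly soft-masked in 68 542-only regions (2.79%), 13 wt-only regions (0.434%) and 1.07% of all regions. The central 32 bases were repeated in the reference for 38 542-only regions (1.56%), 20 wt-only regions (0.667%) and 0.861% of all regions. The median GC content was 47.0% for wt-only, 45.7% for 542-only and 52.7% for regions in all 4 libraries. Over 1 kb from a start these became 46.3%, 45.3% and 47.3%, so that the members differ from the shared regions less once promoters are set aside.

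Short motifs were counted on both strands of the same windows, in regions over 1 kb from a start, where they are not dominated by promoters. The letters searched were CATATG and, likewise an E box of bHLH factors, CAGCTG, then for AP-1 factors TGANTCA, for the GATA family AGATAA, for SOX factors ACAATG, for homeodomain factors TAATTA, for MEIS factors TGACAG, for PBX with HOX factors TGATTNAT, for HOX13 factors CCAATAAA, for RUNX factors TGTGGT, for TEAD factors GGAATG, for ETS factors CCGGAAG and for SP with KLF factors GGGCGG, besides longer motifs of CTCF, NRF1 and EBF that are given by name. CATATG, an E box form that Twist factors bind, was found in 12.4% of the 542-only, 7.76% of the wt-only and 8.66% of all such regions. CAGCTG, which myogenic factors bind, was found in 32.7%, 25.7% and 29.5%. AP-1 matches stood at 8.70% in 542-only, 11.8% in wt-only and 9.78% in all regions, and CTCF matches at 5.80%, 6.46% and 9.56%. SOX letters were in 15.6% of the 542-only and 14.0% of all regions and in fewer of the wt-only regions (327 of 2616). GATA letters were in 11.1% of the 542-only, 8.83% of the wt-only and 9.82% of all regions, and homeodomain letters in 7.47%, 9.37% and 7.89%. The letters of MEIS, proximal limb factors, were in 21.8% of the 542-only, 21.8% of the wt-only and 21.9% of all regions, and HOX13 letters were in 1.71%, 1.72% and 1.66%. For the other 7 motifs the shares of 542-only and wt-only regions were 6.46% and 5.93% for PBX and HOX, 24.4% and 23.7% for RUNX, 23.6% and 24.9% for TEAD, 1.36% and 1.22% for ETS, 6.24% and 5.70% for SP and KLF, 0.484% and 0.879% for EBF and 0% and 0.115% for NRF1. A match is a description of the letters and no evidence that a factor binds there.

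**Figure D5:**
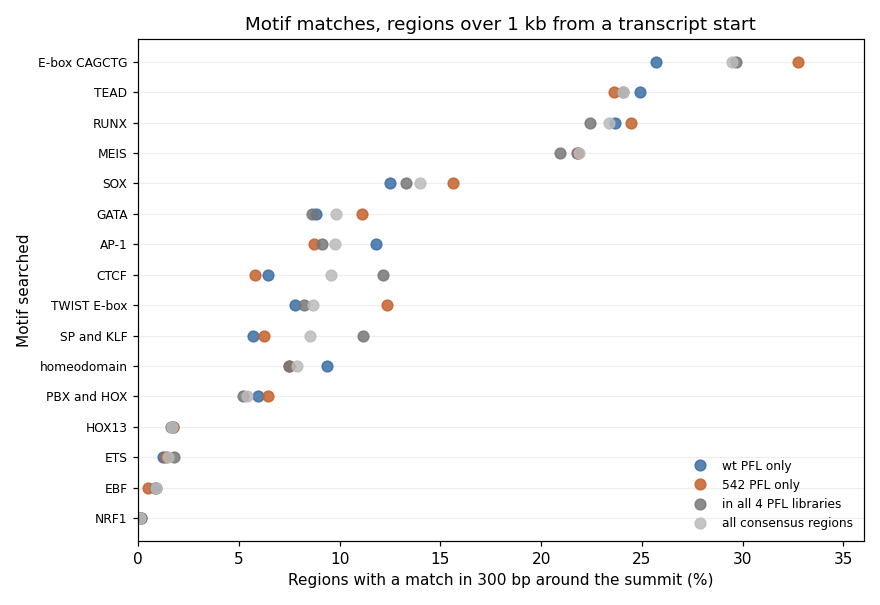
Share of regions (%) over 1 kb from a transcript start with a match to each motif in 300 bp around the summit, for the wt-only and 542-only members, the regions in all 4 PFL libraries and all consensus regions. The 542-only points lie to the right for both E boxes, at 12.4% and 32.7%, and the wt-only point for AP-1, at 11.8%.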

How the data were processed

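ATAC-seq was carried out by the authors on 50000 cells per library, with 2 libraries per genotype and tissue. The authors trimmed reads with Cutadapt, aligned them with bowtie2 to mm10 (wt) or the mutant genome (542), kept alignments of sufficient mapping quality with bamtools, removed duplicates with picard and called peaks per library with MACS2, without pooling. The deposited fold is a ratio of tags to local background. A −log10 p-value and a −log10 q-value, as the authors deposited them, were given by MACS2, and the deposited score restates the latter and was not used. No normalization between libraries enters these values.

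Summits of 1 region were merged, regions were ranked by −log10 q and then fold on chromosomes 1 to 19, and the 50000 strongest per library were joined by an overlap of 1 bp. Positions of 542 on chromosome 2 beyond 75273815 were reduced by 4218 bp, and regions inside the insertion were set apart. Nearest starts came from GENCODE M21 and sequence from the GRCm38 reference of RefSeq. Depth was estimated from the most frequent background. Absence from a list is not absence of accessibility. Consensus and member calls were tested on simulated data. Permutations exchanged genotypes within tissues. Per the study's methods, replicates were separate pools of cells from different embryos.

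Named were, per direction, the 10 members of highest fold, the 5 highest without a call in the other genotype, the 5 highest found alike in DFL and FB, genes with most members, all HoxD members and up to 4 per gene list; the text gives a selection of these. 1 named region is not reported here. Regions recurring in 3 tissues beyond these 5, such as Crhr2 and D130017N08Rik, were chosen after their values were seen. The members, lists and tests were chosen with earlier results of these data known. Python 3.11.15, pandas 2.3.3, numpy 2.4.6 and scipy 1.17.1 were used. Alternatives were other list lengths, ranking, windows, overlap, left-out libraries, a replicate block and the earlier wt DFL library.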

Additional observations from a re-analysis of the deposited data

Results flagged for a closer look

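Some members went opposite ways in another tissue, and these differences were not tested. Of the wt-only PFL regions, 32 were 542-only in DFL (1.07%, against 1.48% of all regions) and 20 in FB (0.667%, against 0.771%). Of the 542-only PFL regions, 40 were wt-only in DFL (1.64%, against 3.06% of all regions) and 25 of 2439 in FB (where 0.885% of all regions were). These shares lie below or near those over all regions and are no result about the members. The one of highest fold among the 32 lies in an intron of Fgf12 (chromosome 16, 28694174 to 28695213), with 7.08 and 6.91 in wt PFL against 3.37 and 2.60 in 542 PFL, whereas in DFL it had 3.96 and 4.73 for wt and 5.16 and 5.29 for 542. Near Gm19311 (chromosome 14, 81758479 to 81758942) a 542-only region had 6.89 and 8.21 in 542 PFL against 4.02 and 4.48 in wt PFL, whereas in DFL it had 5.86 and 5.08 for wt and 3.87 and 4.34 for 542.

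The earlier wt DFL library, which entered no group, held 43.9% of the wt-only PFL regions, above the other 2 wt DFL libraries at 40.3% and 40.1%. It was the deepest of the 13 libraries, with an estimated 78.0 M tags beside 54.5 and 44.0 M in those 2. The median width of its listed regions was 722 bp, beside 687 and 645 bp. The part of depth and width in this share was not tested. Inside the insertion, where the comparison has no wt counterpart, the highest fold of a 542 PFL region was 4.38.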

How the results depend on the processing

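The counts depended on the lists. With the 20000 strongest regions there were 941 wt-only and 853 542-only regions, and with all deposited regions 11888 wt-only and 2014 542-only, where lists are of unequal length. Judged against the full lists of the other genotype, 502 and 141 remained. Leaving out 1 PFL library gave 5210 to 6928 wt-only and 4179 to 7263 542-only regions, since fewer libraries had to share a call. Ranking by fold, windows of 500 bp and a minimum overlap of 0.5 of a region changed neither count by over 1.5 times. Cutting lists over all chromosomes, an alternative chosen after seeing the data, gave 2945 and 2325. The share within 1 kb of a start was 27.3% of the wt-only regions with the 20000 strongest, 8.61% with all deposited and 11.4% ranked by fold. For 542-only regions it was 11.3% with the 20000 strongest and 10.5% with windows of 500 bp. With 1 library left out it was 11.7% to 14.2% and 7.04% to 8.24%.

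The differences in DFL and FB kept their direction under every alternative run, with exact permutation p of 0.0556 to 0.111 for wt-only members and of 0.0556 to 0.611 for 542-only members where 36 assignments were possible. The highest, with -1.42 points, came from all deposited regions. With the earlier wt DFL library included, the wt-only difference was 8.26 points (exact permutation test, p = 0.0167) and the 542-only difference -3.75 (exact permutation test, p = 0.0333). That library was made apart from the others and was the deepest, as given above. The part of its depth in these values was not tested. DFL alone gave 13.3 and -6.07 points, FB alone 2.02 and -0.349. With 1 library or replicate left out, the range was 4.88 to 8.79 points for wt-only and -3.32 to -1.79 for 542-only members. For members with no call in the other genotype, an alternative chosen after seeing the data, the differences were 8.32 and -11.2 points. A replicate block, exchanging genotypes within replicate numbers, left the differences at 7.64 and -3.21 with p = 0.125 by the exact permutation test, the smallest value it allows. Of the named regions, 81 wt-only and 78 542-only, 67 and 57 were members when ranked by fold, 9 and 6 with the 20000 strongest and 15 and 8 with all deposited regions. The cause of these changes was not tested.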
